A study of Homo sapiens with 18 samples.

Results

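The comparison reported here set an ADAR knockdown line against its control line while both were in DMSO, the solvent that served as vehicle for the drug used elsewhere in the study. Libraries were chosen by title, which gave 3 of the knockdown line and 3 of the control line, 6 of the 18 libraries of the series. Both lines were made from ZR-75-1, a human luminal breast cancer line with active estrogen receptor signalling. The groups, in the order used below, were knockdown cells (ADAR KD in the labels) in DMSO and control cells (SHC in the labels) in DMSO. Each was kept for 16 h in medium with 1% serum, with DMSO labelled as 100 nM. The same 2 lines without any treatment, and with 100 nM triptolide, an inhibitor of transcription by RNA polymerase II, gave the other 12 libraries. The labels name 1 knockdown line, do not give the sequence that targets ADAR, and do not say whether either line is a clone. A change caused by the knockdown and any other difference between the lines therefore cannot be told apart. The question the comparison answers is which transcripts differ between the lines when no drug is acting.

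ADAR is the enzyme that deaminates adenosine to inosine in double-stranded RNA, most often in inverted Alu repeats inside transcripts. Editing loosens such duplexes, and unedited duplexes can bind the cytoplasmic sensors MDA5 and PKR, which raise interferon-stimulated genes and halt translation. ADAR is itself partly under the control of an interferon-inducible promoter.

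The 6 libraries held between 27317278 and 32816925 counts in genes from a kit for stranded total RNA. Levels are given as counts per 1000000 counts of a library after TMM scaling (CPM), always in the order of replicate numbers 1, 2 and 3, and libraries of the same number were treated as pairs. Of the 14 luminal markers, all 14 passed 1 CPM on average in both lines, with KRT8 at 2310, 1600 and 3120 CPM in knockdown libraries and 2690, 1670 and 2770 CPM in control libraries. The leukocyte marker PTPRC had 1 count over the knockdown libraries and 0 over the control libraries, and CD68 stayed under 0.05 CPM in each library. HLA-DRA was the exception among leukocyte markers, at 137, 107 and 130 CPM in knockdown libraries and 121, 100 and 82.4 CPM in control libraries. In bulk RNA such as this, fewer cells of a kind and less RNA per cell cannot be told apart.

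ADAR mRNA was measured first, as the target of the knockdown. The gene (ENSG00000160710.15_2) lies on the minus strand of chromosome 1 at 154554171 to 154600489 of GRCh37. It stood at 293, 357 and 217 CPM in knockdown libraries, against 458, 665 and 280 CPM in control libraries. The knockdown library was the lower one in 3 of 3 pairs, at 64.1, 53.6 and 77.5% of its partner, but the groups overlapped because control replicate 3 was low. The log2 change was -0.65 ± 0.18 (standard error, SE) and its adjusted p of 0.126 did not pass the threshold of 0.05 over all genes with edgeR. It passed, at adjusted p = 0.00375, when the 6 DMSO libraries were fitted alone, at 0.0234 in the 12 libraries without triptolide and at 0.000928 when no filter on low counts was set. Over the other alternatives the adjusted p ran from 0.0816 with the DESeq2 Wald test to 1.0 without the pairing term, and the log2 change over all of them from -0.79 to -0.49. With triptolide ADAR was called at a log2 change of -1.42 ± 0.18 (adjusted p = 0.000108), and in untreated cells it was -0.67 ± 0.18 (adjusted p = 0.117). ADARB1, the other active deaminase, was not called, at 7.08, 6.71 and 5.76 CPM in knockdown libraries and 6.94, 6.23 and 5.78 CPM in control libraries. ADARB2, a brain-type family member without known editing activity, had 10 counts over the knockdown libraries and 24 over the control libraries and was not called.

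Of 21285 genes tested with edgeR's quasi-likelihood test, 124 (0.583%) were called at a Benjamini-Hochberg adjusted p under 0.05. The 71 genes higher in knockdown cells made up 0.334% of those tested, and the 53 lower genes 0.249%. Each of the 124 moved in the direction of its call in 3 of 3 pairs, and in 106 the knockdown libraries did not overlap the control libraries, as was so in 6.52% of all tested genes. The calls came from a paired test of these same libraries, so both counts follow in part from the selection and are no separate support. Changes above 2-fold were seen in 86, of which 47 were higher and 39 lower in knockdown cells. Protein-coding genes made up 102 of the calls (59 higher, 43 lower), long noncoding RNAs 15 (8 higher, 7 lower), and pseudogenes and others 7 (4 higher, 3 lower). The median log2 change over all genes was -0.009. The number of calls rests on the pairing and on single libraries. Without the pairing term 21 genes were called. Among those named below, SPP1, ENSG00000237640, GUCY1A1, SIRLNT, IFI44L, IRAG1, GLYATL3, RSAD2, SLCO4C1, CAPN1-AS1, SLC1A3, CEACAM5, ID4, PRSS23, TFF1, NDUFV2, PRKG1, TENM1 and TENM3 were then not called. Leaving out one of the 6 DMSO libraries gave between 61 calls (without knockdown replicate 3) and 90 (without knockdown replicate 2), with 67, 74, 64 and 79 without control replicates 1, 2 and 3 and knockdown replicate 1.

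**Figure D1:**
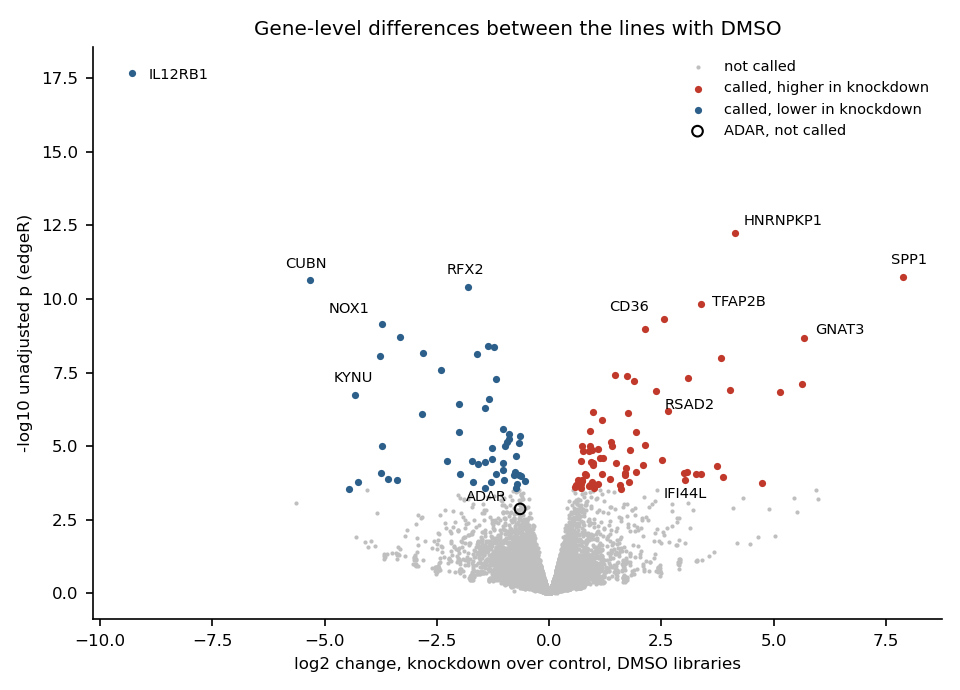
Each point is 1 of the 21285 genes tested in DMSO libraries, with the log2 change of knockdown over control on the x axis and the negative log10 of the unadjusted edgeR p on the y axis; red points are the 71 genes called higher and blue points the 53 called lower in knockdown cells. IL12RB1 lies far to the left, SPP1 far to the right, and ADAR (circle) below the called genes.

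The gene with the largest rise by log2 change was SPP1, which encodes osteopontin, a secreted phosphoprotein that binds integrins and CD44 (ENSG00000118785.13_2, chromosome 4, 88896819 to 88904684 of GRCh37). SPP1 was at 3.49, 5.61 and 0.284 CPM in knockdown libraries, against 0.0239, 0 and 0 CPM in control libraries. The gene was thus nearly silent in control cells, with 1 count over 3 libraries against 358 counts over the knockdown libraries. That gave a ratio of 334, with a 95% interval of 59.6 to 13200 that covers counting error only, and an edgeR log2 change of 7.89 ± 0.60 (adjusted p = 1.24e-07). Replicate 3 was the lowest of the knockdown libraries, yet it lay above each control library.

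A pair of higher genes, CD36 and GNAT3, share a locus on chromosome 7. CD36, a scavenger receptor that takes up long-chain fatty acids and oxidised lipoproteins (ENSG00000135218.17_2, 79998891 to 80308593, plus strand), had 6.19, 7.10 and 4.26 CPM in knockdown libraries, against 0.790, 1.16 and 1.06 CPM in control libraries. GNAT3, the alpha subunit of the taste G protein gustducin, lies inside that span on the minus strand (80087951 to 80141380) and had 2.77, 2.82 and 0.852 CPM in knockdown libraries, against 0.0479, 0.0306 and 0.0323 CPM in control libraries. Knockdown and control libraries did not overlap for either gene. CD36 rose by a log2 change of 2.55 ± 0.25 (adjusted p = 1.48e-06) and GNAT3 by 5.68 ± 0.59 (adjusted p = 4.23e-06). Whether the counting used strand is not stated, so it is not known whether reads of the 2 genes were kept apart. Of the 31 tested genes for fatty acid uptake and lipid droplets, CD36 was the only one called, and the list had a median log2 change of 0.06. In the 6 DMSO libraries alone CD36, DGAT1 and PPARA were called, 2 of them higher and 1 lower.

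TFAP2B, an AP-2 factor that acts in neural crest and kidney development, was higher in knockdown cells as well (ENSG00000008196.12_1, chromosome 6, 50786436 to 50815332). It had 11.2, 16.7 and 16.2 CPM in knockdown libraries, against 1.27, 2.08 and 0.871 CPM in control libraries. The lowest knockdown library was well above the highest control library, and the log2 change was 3.38 ± 0.30 (adjusted p = 5.14e-07). The other 3 tested AP-2 genes were not called. Their log2 changes were -0.42 ± 0.12 for TFAP2A (adjusted p = 0.148), -0.05 ± 0.14 for TFAP2C and -0.07 ± 0.29 for TFAP2E. TFAP2A was called with the DESeq2 Wald test and in the 6 DMSO libraries alone. The AP-2 core letters GCCNNNGGC, searched on both strands of the 250 bases before and 50 bases after each gene start, were in 13 of the 48 higher genes that have a RefSeq promoter (27.1%) and 8 of 38 lower genes (21.1%). The share was 31.1% over 13044 tested genes with a promoter.

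Of the higher genes, 3 belonged to signalling by cyclic GMP, the second messenger made by guanylate cyclase when nitric oxide binds it. The list of 17 such genes was drawn up after their values were seen and gets no test. GUCY1A1, the alpha subunit of the soluble cyclase, had 9.94, 13.6 and 12.5 CPM in knockdown libraries, against 1.41, 1.77 and 0.548 CPM in control libraries. IRAG1, which links cyclic GMP kinase to the calcium release channel of the endoplasmic reticulum, had 2.55, 3.40 and 0.965 CPM in knockdown libraries, against 0.359, 0.428 and 0.258 CPM in control libraries. PRKG1, cyclic GMP-dependent kinase 1, had 0.578, 0.690 and 0.369 CPM in knockdown libraries, against 0, 0.0611 and 0.0645 CPM in control libraries. All 3 were separated by line, and they were the only genes called among the 14 of that list that were tested (median log2 change 0.06). Over all genes 0.334% were called higher, but a list drawn up after values were seen cannot be compared with that share. The log2 changes were 3.26 ± 0.57 for GUCY1A1 (adjusted p = 0.0217), 2.64 ± 0.39 for IRAG1 (adjusted p = 0.000424) and 3.73 ± 0.74 for PRKG1 (adjusted p = 0.0134). GUCY1B1, the beta subunit with which GUCY1A1 forms the active cyclase, had 0 counts in all 6 libraries. The calls of GUCY1A1 and PRKG1 were sensitive to single libraries. GUCY1A1 had adjusted p between 0.091 and 0.13 with any one of the 6 libraries left out (log2 change 2.89 to 3.55). PRKG1 had 0.159, 0.152, 0.109 and 0.074 without control replicate 1, control replicate 2, knockdown replicate 1 and knockdown replicate 3. PRKG1 overlaps CSTF2T on the opposite strand, a polyadenylation factor gene that was also called higher (log2 change 1.18 ± 0.18, adjusted p = 0.000775).

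CACNA2D1, an auxiliary subunit of voltage-gated calcium channels, had 0.987, 1.55 and 1.42 CPM in knockdown libraries, against 0.120, 0.0611 and 0.0323 CPM in control libraries. CASQ2, the calcium-storing calsequestrin of heart muscle, had 4.04, 3.31 and 1.99 CPM in knockdown libraries, against 0.215, 0.397 and 0.0645 CPM in control libraries. Each knockdown library exceeded each control library in both genes, with log2 changes of 4.02 ± 0.53 (adjusted p = 0.000106) for CACNA2D1 and 3.82 ± 0.44 (adjusted p = 1.31e-05) for CASQ2. The other genes among the 15 largest rises were ITM2A, a small membrane glycoprotein gene first described in cartilage and muscle, GLYATL3, of the glycine acyltransferase family, the noncoding RNAs SIRLNT and ENSG00000237640, and the processed pseudogene HNRNPKP1. ITM2A had 7.89, 10.5 and 8.26 CPM in knockdown libraries, against 2.30, 2.38 and 1.45 CPM in control libraries (log2 change 2.13 ± 0.21, adjusted p = 2.51e-06). GLYATL3 overlapped between lines, with 2.05, 3.18 and 6.47 CPM in knockdown libraries and 0.239, 0.153 and 2.06 CPM in control libraries, and its adjusted p of 0.0101 became 0.086 without control replicate 1 and 0.0541 without knockdown replicate 1. HNRNPKP1 had 12.9, 14.8 and 6.47 CPM in knockdown libraries and 0.526, 0.825 and 0.548 CPM in control libraries, but reads of a pseudogene can come from its parent gene, so its level is uncertain. ENSG00000237640, with 184 counts over knockdown and 3 over control libraries, gave a ratio of 57.3 (95% counting interval 19.3 to 280.0) and has the called gene AZGP1 as a neighbour.

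**Figure D2:**
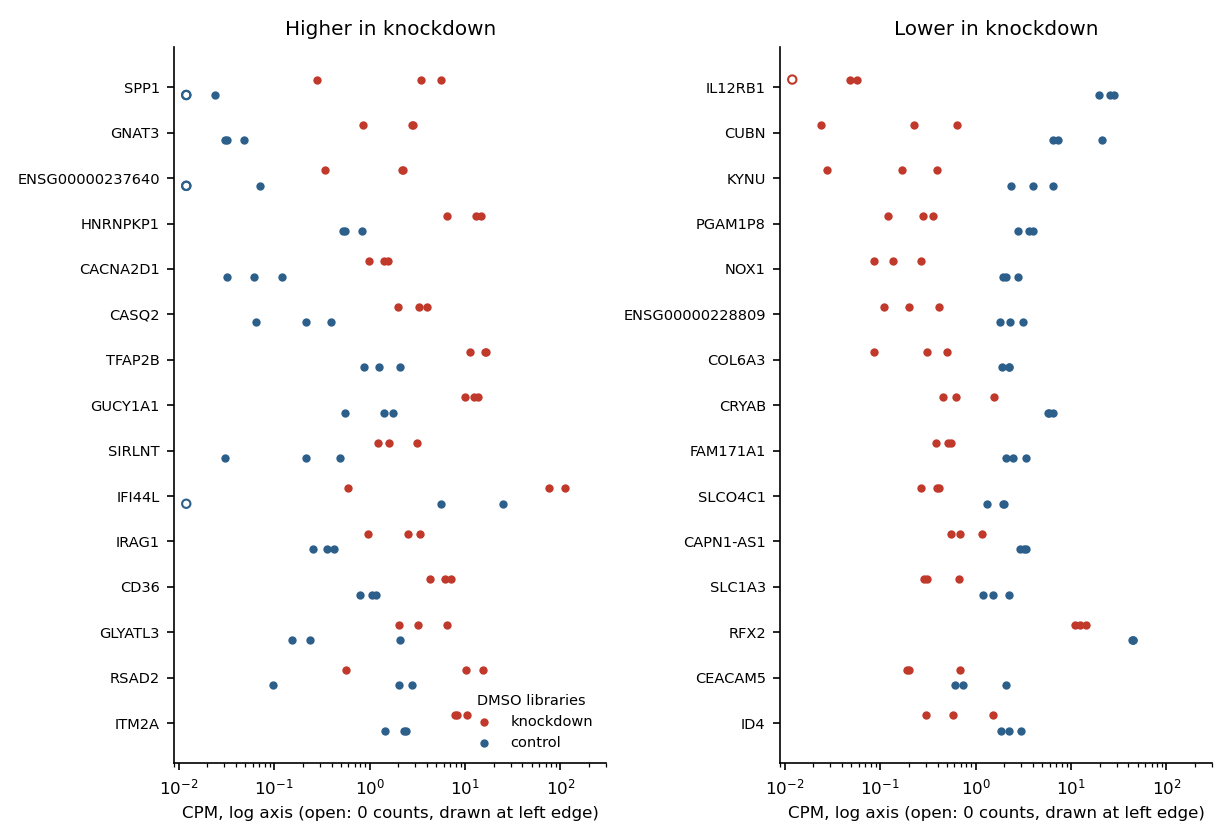
Points are the CPM of single DMSO libraries on a log axis, 3 knockdown libraries (red, upper row of each gene) and 3 control libraries (blue, lower row), for the 15 genes with the largest rise (left) and the 15 with the largest fall (right); open points are libraries with 0 counts. Red and blue points are apart for most genes and overlap for IFI44L, RSAD2, GLYATL3 and CEACAM5.

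Among the lower genes the largest difference was that of IL12RB1, the receptor chain shared by interleukin 12 and interleukin 23 (ENSG00000096996.15_1, chromosome 19, 18169805 to 18209754). IL12RB1 had 0.0481, 0 and 0.0568 CPM in knockdown libraries, against 28.1, 19.6 and 25.4 CPM in control libraries. With 4 counts over the knockdown libraries and 2602 over the control libraries, it was next to absent from the knockdown line, and the fitted log2 change was -9.30 ± 0.35 (adjusted p = 4.4e-14). None of the other 10 tested genes of the interleukin 12 and 23 axis was called; the nearest was IL6ST, the shared signalling chain gp130, at 0.66 ± 0.19 (adjusted p = 0.163), which was called without the filter and in the 6 or 12 libraries alone.

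CUBN encodes cubilin, the endocytic receptor for the vitamin B12 and intrinsic factor complex (ENSG00000107611.14_2, chromosome 10, 16865965 to 17171810). It had 0.0241, 0.635 and 0.227 CPM in knockdown libraries, against 6.41, 21.3 and 7.36 CPM in control libraries. In both lines replicate 2 was the highest, and the lines stayed apart (log2 change -5.33 ± 0.39, adjusted p = 1.24e-07). AMN, the membrane anchor with which cubilin works, was not called (-0.76 ± 0.51, adjusted p = 0.904), nor was any other of the 14 tested genes for vitamin B12 handling.

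KYNU, kynureninase of the tryptophan breakdown pathway (ENSG00000115919.14_2, chromosome 2, 143635226 to 143813402), had 0.168, 0.0276 and 0.397 CPM in knockdown libraries, against 6.46, 3.97 and 2.36 CPM in control libraries. NOX1, a superoxide-generating NADPH oxidase (ENSG00000007952.17_2, chromosome X, 100098313 to 100129348), had 0.265, 0.138 and 0.0852 CPM in knockdown libraries, against 1.96, 2.81 and 2.06 CPM in control libraries. CRYAB, the small heat shock protein alpha B-crystallin (ENSG00000109846.7_1, chromosome 11, 111779288 to 111794446), had 0.626, 1.57 and 0.454 CPM in knockdown libraries, against 5.84, 6.54 and 5.71 CPM in control libraries. Knockdown and control libraries were apart in all 3 genes. The log2 changes were -4.33 ± 0.54 for KYNU (adjusted p = 0.000139), -3.72 ± 0.37 for NOX1 (adjusted p = 1.85e-06) and -2.81 ± 0.31 for CRYAB (adjusted p = 1.05e-05). Each was the only called gene of its list, of 8 tested genes of the kynurenine pathway (median log2 change -0.13), 11 NADPH oxidases and partners (median -0.11) and 6 small heat shock proteins (median -0.41). CYBA, the membrane partner of NOX1, was at -0.73 ± 0.39 (adjusted p = 0.785) and HSPB8, another small heat shock protein, at -0.66 ± 0.19 (adjusted p = 0.181); HSPB8 was called without the filter and in the 6 or 12 libraries alone.

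RFX2, a transcription factor of ciliated cells and spermatids (ENSG00000087903.12_2, chromosome 19, 5993175 to 6199583), was lower in knockdown cells, with little spread within either line. It had 11, 14.2 and 12.4 CPM in knockdown libraries, against 44.3, 45.0 and 43.2 CPM in control libraries. Means were 12.5 ± 1.58 CPM in knockdown and 44.2 ± 0.899 CPM in control cells (SD, n = 3 each), a log2 change of -1.82 ± 0.15 (adjusted p = 1.65e-07). No other of the 7 tested RFX genes was called, with RFX1 at -0.53 ± 0.22 (adjusted p = 0.576) and RFX3, another ciliary regulator, at -0.28 ± 0.22.

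The remaining genes among the 15 largest falls were COL6A3, a chain of collagen VI, FAM171A1, a membrane protein gene, SLC1A3, a glutamate transporter of glia, SLCO4C1, an organic anion transporter of the kidney, CEACAM5, the carcinoembryonic antigen, ID4, an inhibitor of basic helix-loop-helix factors, and 3 noncoding or pseudogene transcripts. COL6A3 had 0.313, 0.497 and 0.0852 CPM in knockdown libraries, against 2.23, 1.89 and 2.26 CPM in control libraries (log2 change -2.83 ± 0.42, adjusted p = 0.000484). FAM171A1 had 0.385, 0.552 and 0.511 CPM in knockdown libraries and 2.08, 2.44 and 3.39 CPM in control libraries (log2 change -2.42 ± 0.29, adjusted p = 3.08e-05). SLC1A3 had 0.289, 0.663 and 0.312 CPM in knockdown libraries and 1.53, 2.26 and 1.19 CPM in control libraries (log2 change -2.00 ± 0.28, adjusted p = 0.000262). None of these 3 overlapped between the lines. PGAM1P8, a pseudogene of a glycolytic mutase, and CAPN1-AS1, an antisense RNA of CAPN1, lie next to each other on chromosome 11, with SPDYC, a cell cycle regulator gene, beside PGAM1P8. All 3 fell, PGAM1P8 by 3.77, CAPN1-AS1 by 2.01 and SPDYC by 3.60 on the log2 scale. SPDYC had only 4 counts over the knockdown and 53 over the control libraries (edgeR adjusted p = 0.0295). Its call was kept in 0 of the 6 fits without one DMSO library, and those of PGAM1P8 and CAPN1-AS1 in 6. If the counting did not use strand, CAPN1-AS1 reads could be mixed with those of CAPN1. ENSG00000228809, a long noncoding RNA on chromosome 20, had a log2 change of -3.32 ± 0.34 (adjusted p = 4.01e-06). The calls of SLCO4C1, CEACAM5 and ID4 were near the threshold and depended on single libraries. SLCO4C1 had adjusted p between 0.0624 and 0.0839 without knockdown replicate 1, 2 or 3 or control replicate 3. CEACAM5 had 0.101, 0.106 and 0.0882 without control replicate 1, knockdown replicate 2 and knockdown replicate 3. ID4 had between 0.0933 and 0.234 without knockdown replicate 1 or 2 or any one control library.

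Interferon-stimulated genes, which unedited double-stranded RNA is known to induce, were examined as a list of 59, of which 58 were tested. RSAD2 and IFI44L were called, both higher in knockdown cells, and no member was called lower. Over all genes 0.334% were called higher. The number of called members was 0 without the pairing term and 0 without replicate 1 of all groups. It was 3 without the filter on low counts, 4 with the DESeq2 Wald test, in the 12 libraries without triptolide or without replicate 2 of all groups, and 7 in the 6 DMSO libraries alone, each one higher. In the last of these fits IFI44L was not called (adjusted p = 0.217). RSAD2, the antiviral radical enzyme viperin (ENSG00000134321.11_1, chromosome 2, 7005688 to 7038370), had 15.5, 10.2 and 0.568 CPM in knockdown libraries, against 2.03, 2.81 and 0.0968 CPM in control libraries. IFI44L, an interferon-induced protein of unsettled function (ENSG00000137959.15_2, chromosome 1, 79085587 to 79111830), had 75.2, 112 and 0.596 CPM in knockdown libraries, against 5.62, 25.1 and 0 CPM in control libraries. IFI44, its neighbour and relative, had 114, 104 and 1.48 CPM in knockdown libraries, against 4.98, 15.9 and 0.742 CPM in control libraries. Replicate 3 was far lower than the others in both lines for all 3 genes, so the groups overlapped, while within each pair the knockdown library was the higher one. The log2 changes were 2.38 ± 0.32 for RSAD2 (adjusted p = 0.000106), 3.01 ± 0.51 for IFI44L (adjusted p = 0.0212) and 3.20 ± 0.75 for IFI44, which was not called (adjusted p = 0.132) but was with the DESeq2 Wald test and without replicate 3 of all groups. The IFI44L call was lost without knockdown replicate 1 (adjusted p = 0.125), knockdown replicate 3 (0.0817), control replicate 1 (0.215), control replicate 2 (0.0854) or control replicate 3 (0.0663). RSAD2 was called with any one library left out, but not when replicate 1 of all groups was left out (adjusted p = 0.121). CMPK2, a nucleotide kinase gene that overlaps RSAD2 on the opposite strand, was at 0.92 ± 0.33 (adjusted p = 0.4).

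Over the list the median log2 change was 0.36, beside -0.009 for all genes, and 49 of 58 members lay above 0. Within pairs 1, 2 and 3, the knockdown library was higher in 49, 31 and 49 of the 58 members. The mean log2(CPM + 1) of the list was 5.41, 5.34 and 3.25 in knockdown libraries, against 4.77, 5.17 and 2.77 in control libraries. The gap between replicate 3 and the other replicates within a line was thus wider than the gap between the lines. MX1, a dynamin-like antiviral GTPase and an abundant member, had 372, 375 and 31.1 CPM in knockdown libraries and 218, 354 and 17.8 CPM in control libraries (log2 change 0.53 ± 0.19, adjusted p = 0.38), and was called without the filter and in the 6 DMSO libraries alone. ISG15, a ubiquitin-like modifier, had 44.7, 24.7 and 1.70 CPM in knockdown libraries and 48.7, 20.2 and 0.323 CPM in control libraries, so pair 1 ran the other way. In untreated cells the median of the list was 0.25 with 2 called members, and with triptolide it was 0.23 with none called. The median with any one DMSO library left out was between 0.24 without control replicate 3 and 0.57 without control replicate 2. Libraries of replicate 3 stood apart, and without that number in all groups the median of the list was 0.24, RSAD2 was still called and IFI44L was not (adjusted p = 0.135).

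**Figure D3:**
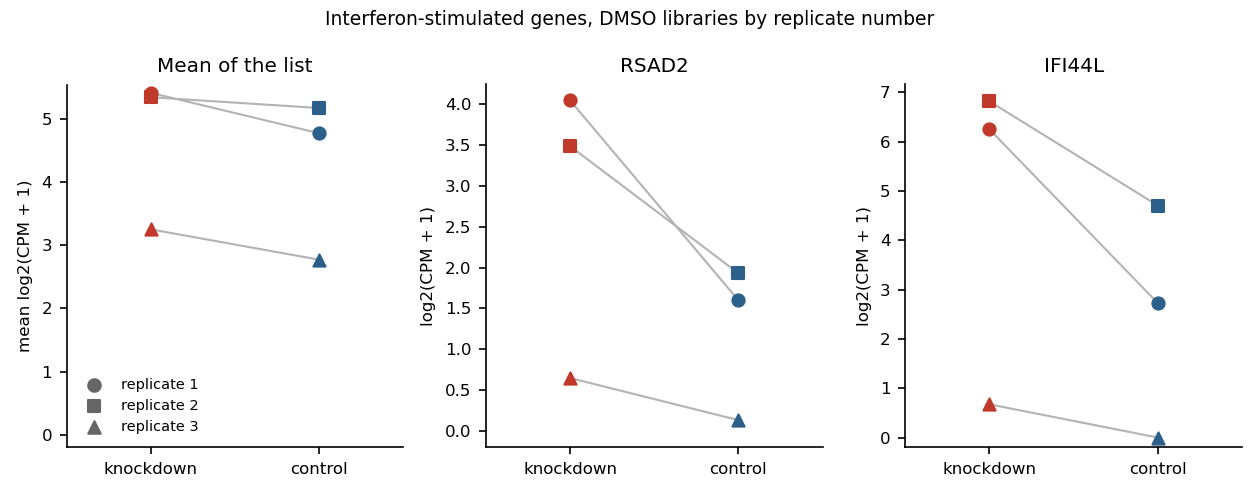
Points are the 6 DMSO libraries, knockdown (red) left and control (blue) right, with grey lines joining libraries of the same replicate number; the y axis is the mean log2(CPM + 1) of 58 interferon-stimulated genes (left) and the log2(CPM + 1) of RSAD2 (middle) and IFI44L (right). Lines fall toward control in each pair, and replicate 3 (triangles) is low in both lines.

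The promoters of IFI44L and its neighbour IFI44 are shown because these were the members with the largest changes and because both hold the letters of an interferon-stimulated response element. That element mediates the response of such genes to interferon and was searched as GAAANNGAAA on both strands. The sequences run 5′ to 3′ on the plus strand from 250 bases before to 50 bases after the gene start in RefSeq, build GRCh38.p14, with matches in capitals. IFI44L lies at chr1:78620198-78620497 and its matches start at -164 and -73 from the gene start. IFI44 lies at chr1:78649539-78649838, with a match at -18 that reads on the opposite strand.
IFI44L: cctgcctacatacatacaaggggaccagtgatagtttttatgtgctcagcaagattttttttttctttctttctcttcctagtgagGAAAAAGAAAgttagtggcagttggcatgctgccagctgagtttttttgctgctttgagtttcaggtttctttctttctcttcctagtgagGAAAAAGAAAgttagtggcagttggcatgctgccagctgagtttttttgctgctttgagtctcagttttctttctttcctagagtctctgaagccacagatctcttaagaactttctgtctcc
IFI44: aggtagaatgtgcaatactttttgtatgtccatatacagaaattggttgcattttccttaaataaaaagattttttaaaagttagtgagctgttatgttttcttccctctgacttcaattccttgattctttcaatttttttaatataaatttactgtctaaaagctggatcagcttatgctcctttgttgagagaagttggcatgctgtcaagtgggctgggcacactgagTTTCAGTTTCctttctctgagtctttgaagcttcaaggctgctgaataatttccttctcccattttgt
These letters were in 29 of the 46 interferon-stimulated genes with a promoter in the table (63.0%) and in 2.81% of tested genes with one. Among the called genes they were in 1 of 48 higher genes, IFI44L, and in 1 of 38 lower genes, ABCC2, a canalicular efflux transporter. RSAD2 and CMPK2 had no match in their windows. Only 1 gene start per gene was searched, so promoters at other starts were not covered. The RSAD2 window holds GAAA repeats with a shorter gap, which this search passes over. The lack of a match therefore does not show that the element is absent from either gene.

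The sensors of double-stranded RNA were measured as a list of 15, with 14 tested and none called (median log2 change 0.31, 11 above 0). EIF2AK2, the kinase PKR, had 159, 237 and 84.4 CPM in knockdown libraries and 109, 222 and 55.2 CPM in control libraries (log2 change 0.40 ± 0.19, adjusted p = 0.716), and was called in the 6 DMSO libraries alone. IFIH1, the helicase MDA5, had 65.3, 88.8 and 16.7 CPM in knockdown libraries and 39.6, 93.8 and 12.6 CPM in control libraries (log2 change 0.35 ± 0.18, adjusted p = 0.775). OAS1, which makes the activator of RNase L, was at 0.49 ± 0.22 (adjusted p = 0.662). The lines overlapped in each of these, and replicate 3 was again the lowest. None of 18 tested interferons, receptors and STAT genes was called (median 0.08), nor of 18 NF-kB targets (median 0.20), of which BIRC3, an inhibitor of apoptosis, was nearest at 0.83 ± 0.22 (adjusted p = 0.103). BIRC3 was called at 0.0285 without knockdown replicate 2, 0.0437 without replicate 2 of all groups, 0.0255 with the DESeq2 Wald test, 0.038 without the filter and 0.0324 in the 6 DMSO libraries alone. IER3, an early response gene of the same list, was called without the filter (adjusted p = 6.53e-05). The 36 targets of ATF4 in the integrated stress response had 0 calls and a median of -0.07, with 9 above 0. Within pairs 1, 2 and 3, the knockdown library was higher in 23, 5 and 13 of them. Their median in untreated cells was -0.19, and TRIB3 and VEGFA were called lower in the 6 DMSO libraries alone. The 25 p53 targets had 0 calls and a median of -0.03, with 11 above 0.

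Transcripts known as editing substrates were examined next. Of 18 tested recoding targets, in which editing changes the protein, none was called (median log2 change 0.09), with FLNA, the actin crosslinker filamin A, at 0.42 ± 0.15 (adjusted p = 0.363). It was called without knockdown replicate 1 (log2 change 0.64, adjusted p = 0.0359). Of 27 tested mRNAs with edited inverted Alu repeats none was called (median 0.11). AHR, the receptor for dioxin and tryptophan metabolites, came nearest, with 14.3, 11.8 and 25.8 CPM in knockdown libraries and 7.75, 7.33 and 11.3 CPM in control libraries. Its lines did not overlap, and its log2 change of 0.94 ± 0.25 had an adjusted p of 0.12. AHR was called with the DESeq2 Wald test, without the filter, in the 6 or 12 libraries alone and without knockdown replicate 2. The 15 tested ADAR enzymes and double-stranded RNA-binding partners had 0 calls and a median of 0.03. Counts per gene carry no information on editing itself.

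Estrogen receptor targets moved in both directions, with 2 called higher and 1 called lower of 34 tested (median log2 change 0.17), beside 0.334% higher and 0.249% lower over all genes. In the 6 DMSO libraries alone 6 were called higher and 3 lower, and without the pairing term 0 and 1. PRSS23, a serine protease, had 47.9, 29.4 and 42.3 CPM in knockdown libraries, against 21.3, 15.1 and 24.5 CPM in control libraries (log2 change 0.97 ± 0.14, adjusted p = 0.000455). TFF1, a secreted trefoil peptide and classical estrogen-induced gene, had 7.51, 4.67 and 3.09 CPM in knockdown libraries, against 2.08, 3.48 and 0.710 CPM in control libraries. NPY1R, a receptor for neuropeptide Y (ENSG00000164128.6_2, chromosome 4, 164245114 to 164265984), had 4.09, 4.83 and 4.43 CPM in knockdown libraries, against 13.2, 13.1 and 14.1 CPM in control libraries. PRSS23 and NPY1R were apart between the lines and TFF1 overlapped. The log2 changes were -1.60 ± 0.18 for NPY1R (adjusted p = 1.05e-05) and 1.35 ± 0.29 for TFF1 (adjusted p = 0.0293). The TFF1 call was lost without control replicate 1 (adjusted p = 0.275), control replicate 3 (0.238), knockdown replicate 1 (0.13) or knockdown replicate 3 (0.175). NPY5R, which overlaps NPY1R on the opposite strand and shares its ligand, had a log2 change of -1.72 ± 0.46 (adjusted p = 0.115) and was the only other tested gene of that family. AREG, an EGF receptor ligand, was at -1.06 ± 0.28 (adjusted p = 0.105). AREG was called lower with the DESeq2 Wald test (0.0293), without the filter (0.00647), in the 6 DMSO libraries alone (0.00666) and in the 12 libraries without triptolide (0.0439). NPY5R was called in the 6 DMSO libraries alone (0.0403), and the receptor gene ESR1, at 0.37 ± 0.12 (adjusted p = 0.259), was called there and with the DESeq2 Wald test.

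Identity markers gave few calls. TFF1 was the only called gene of the 14 luminal markers (median -0.01), and GATA3, a luminal transcription factor, was at -0.18 ± 0.13. None was called of 7 tested basal-like markers (median 0.13), 5 mesenchymal transition factors (0.07), 7 leukocyte markers (-0.04), 6 stromal markers (-0.22) or 3 endothelial markers (0.00). Proliferation genes were not called either, with a median of 0.01 over 30 S phase genes and 0.17 over 32 G2 and mitosis genes, of which 28 lay above 0. In the 6 DMSO libraries alone 1 of the S phase genes, TYMS, was called lower. Of the G2 and mitosis genes 2 were called higher there, ASPM and CENPF, and 1 lower, NDC80. TYMS overlaps ENOSF1 on the opposite strand, a gene of the short arm of chromosome 18 described below. In untreated cells the median of the G2 and mitosis genes was -0.05. Teneurins, cell-surface proteins that bind latrophilins across the synapse, gave 2 calls of 6 tested genes of a list drawn up after values were seen. Over all genes 0.334% were called higher, but a list drawn up in this way cannot be compared with that share and gets no test. TENM1 had 1.68, 4.72 and 2.30 CPM in knockdown libraries and 0.718, 1.41 and 0.452 CPM in control libraries (log2 change 1.75 ± 0.26, adjusted p = 0.000466). TENM3 had 41.6, 70.0 and 83.7 CPM in knockdown libraries and 28.7, 42.8 and 44.8 CPM in control libraries (log2 change 0.72 ± 0.16, adjusted p = 0.0308). TENM1 libraries were apart and TENM3 libraries overlapped, and the TENM3 call was lost with any one library left out (adjusted p 0.0541 to 0.255).

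The 13 mRNAs encoded in the mitochondrial genome lay below 0 without exception, at a median log2 change of -0.58, and none was called. Fitting the 6 DMSO libraries alone called 4 of them. MT-CO1, a core subunit of cytochrome oxidase, had 2240, 2530 and 2380 CPM in knockdown libraries, against 2620, 3890 and 5000 CPM in control libraries (log2 change -0.63 ± 0.22, adjusted p = 0.42). As a share of all counts these mRNAs took 0.894, 0.769 and 0.752% in knockdown libraries and 0.978, 1.06 and 1.37% in control libraries. Knockdown libraries were the lower ones, most of all in pair 3. Mitochondrial ribosomal RNA took 23.5, 31.2 and 20.2% in knockdown libraries and 23.7, 37.1 and 32.6% in control libraries, and the part of this share in the result was not tested. In untreated cells the median of the 13 mRNAs was 0.22. Without control replicate 2 the DMSO median was -0.29, and without knockdown replicate 3 it was -0.32. Of 37 tested nuclear genes for respiratory complex I, NDUFV2, a flavoprotein subunit, was called (2.98, 1.49 and 1.59 CPM in knockdown libraries, 5.19, 5.13 and 6.19 CPM in control libraries). Its log2 change was -1.43 ± 0.28 (adjusted p = 0.0113), and its adjusted p was 0.0565 without control replicate 1, 0.0518 without control replicate 2, 0.0807 without control replicate 3, 0.114 without knockdown replicate 2 and 0.163 without knockdown replicate 3.

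NDUFV2 lies on the short arm of chromosome 18, where called genes were crowded. Of 94 tested genes of the arm, taken as the first 17 Mb, 15 were called lower (16.0%) and 0 higher, against 0.249% called lower over all genes. The median log2 change was -0.52, with 78 of 94 genes below 0. Among the 35 genes of the arm with at least 10 CPM, the median level in knockdown cells was 72.0% of that in control cells, and 33 were lower. RAB12, a small GTPase of membrane traffic, had 13.0, 19.7 and 17.1 CPM in knockdown libraries, against 25.3, 45.3 and 49.3 CPM in control libraries (log2 change -1.23 ± 0.13, adjusted p = 7.27e-06). MYL12A, a regulatory light chain of nonmuscle myosin, had 43.6, 59.9 and 61.9 CPM in knockdown libraries, against 68.3, 89.6 and 104 CPM in control libraries (log2 change -0.66 ± 0.11, adjusted p = 0.0023). Both genes were apart between the lines, one of them strongly and the other modestly. The other members with the smallest p were MTCL1, a microtubule crosslinker, at -1.43 ± 0.21, the noncoding RNA LINC00667 at -1.34 ± 0.19, EPB41L3, a band 4.1 membrane skeleton protein, at -1.02 ± 0.16, and ENOSF1, an enolase-family enzyme, at -0.90 ± 0.15. In untreated and triptolide libraries the median of the arm was -0.57 and -0.55. With any one DMSO library left out, between 7 (without control replicate 3 or knockdown replicate 3) and 11 (without knockdown replicate 1) of the genes were called lower and the median stayed between -0.52 and -0.48. Without the pairing term 1 gene of the arm was called lower, and without replicate 1, 2 or 3 of all groups 6, 6 and 3 were, at medians of -0.50, -0.59, -0.42 and -0.47. In the 6 DMSO libraries alone 26 of 83 were called lower (median -0.47). The long arm of chromosome 18 had a median of 0.06 and 0 genes called lower of 206. The short arm of chromosome 5 was shifted less, with 3 of 181 tested genes called lower (1.66%) and a median of -0.22. The number of DNA copies of these arms in each line was not measured here.

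**Figure D4:**
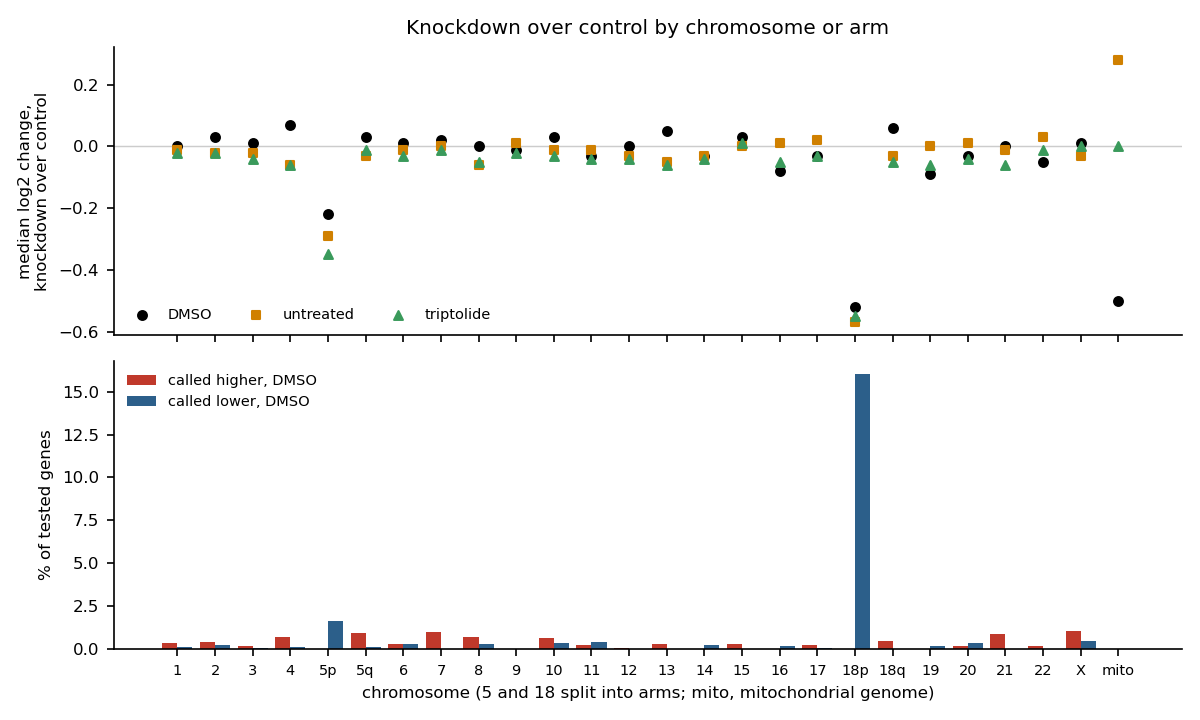
The upper panel gives the median log2 change of knockdown over control for the tested genes of each chromosome in DMSO (circles), untreated (squares) and triptolide (triangles) libraries, and the lower panel the percent of tested genes called higher (red) and lower (blue) with DMSO. The short arms of chromosomes 18 and 5 are low in all 3 treatments. The median of the mitochondrial genome is -0.5 with DMSO, 0.28 in untreated cells and 0.0 with triptolide. None of its genes was called with DMSO, and 0 genes were called in the interaction test of DMSO against untreated cells. Chromosome Y is not drawn.

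The untreated libraries of the same lines gave a second measurement, from other libraries with the same replicate numbers. The comparisons came from 1 fit with a shared estimate of the spread of each gene, so their calls are not independent. The untreated libraries gave 124 calls (0.583%). In both comparisons 86 genes were called, 69.4% of either set, of which 49 were higher and 37 lower. Of the 124 genes called with DMSO, 123 had the same sign in untreated cells and 120 of them an unadjusted edgeR p under 0.05. Over all tested genes, 6.92% had such a p in untreated cells, in either direction. The exception in sign was ASPG, an asparaginase-like enzyme, with log2 changes of -0.75 ± 0.17 with DMSO and 0.01 in untreated cells. No gene was called in opposite directions. SPP1 had 330 counts over untreated knockdown and 0 over untreated control libraries, at least 118.0-fold higher when the control group is set at 3 counts. Log2 changes in untreated cells were -8.75 for IL12RB1, -5.69 for CUBN, -4.26 for KYNU, 3.63 for TFAP2B, 3.00 for GUCY1A1, 2.50 for CD36 and -1.55 for RFX2.

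With triptolide 133 genes were called (0.625%), of which 59 were shared with DMSO, 47.6% of the DMSO calls and 44.4% of the triptolide calls, and 121 of the 124 DMSO calls kept their sign. COL6A3 was among those that differed most in value, with log2 changes of -2.83 with DMSO and 0.17 with triptolide. CUBN, at -5.33 with DMSO, was at -2.13 with triptolide. Called in all 3 treatments were 27 genes higher and 26 lower in knockdown cells. CD36, TFAP2B, GNAT3, SPP1, IL12RB1, KYNU, NOX1, CRYAB and RFX2 were among them.

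Only in DMSO were 32 genes called, 17 higher and 15 lower, but the difference between the DMSO and the untreated comparison was not significant for any of them. In the interaction test 0 of 21285 genes were called with edgeR, 468 had an unadjusted p under 0.05, and 0 were called with DESeq2. Without the filter on low counts 1 gene was called. The smallest interaction p among the 32 was 0.00538, for ASPG, before adjustment. MUC15, a membrane mucin, had log2 changes of -3.73 with DMSO and -1.72 in untreated cells. NEK7, a mitotic kinase that also serves the NLRP3 inflammasome, had 0.57 with DMSO and 0.13 in untreated cells. TENM3, RUNX1 and CEACAM5 were called with DMSO alone as well.

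**Figure D5:**
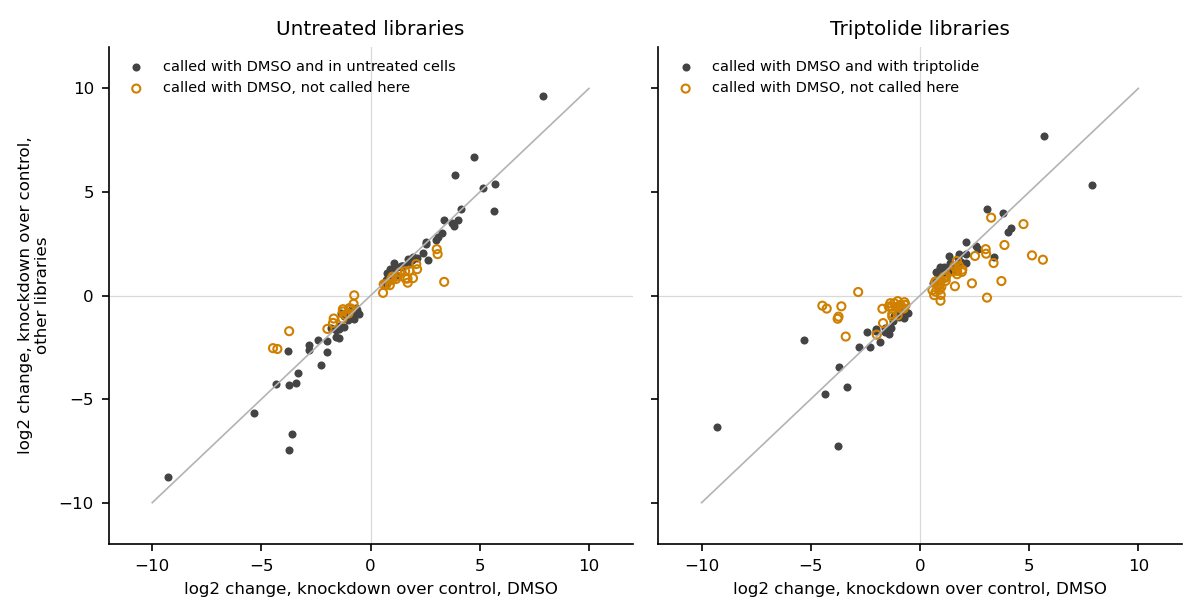
Each point is 1 of the 124 genes called with DMSO; the x axis is its log2 change of knockdown over control with DMSO and the y axis the same change in untreated (left) or triptolide (right) libraries, with the line of equality in grey. Filled points are called in both, 86 genes on the left and 59 on the right, and open points with DMSO alone of the pair.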

How the data were processed

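Total RNA libraries of ZR-75-1 lines were analysed from whole-number counts per gene that the authors deposited, one library per file and with no normalization. Per the submitters' processing notes, the authors used STAR 2.4.2a, HTSeq 0.6.1, hg19, R 3.1 and DESeq2 1.4.5; the strand setting of counting is not given in the sources used here. Rows for reads given to no gene (5 per file) were left out. Of 60252 gene IDs, 58822 (97.6%) matched GENCODE for symbols and GRCh37 positions. Depth was 27317278 to 32816925 counts in genes per DMSO library.

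Counts went into edgeR 4.0.16 (quasi-likelihood test, TMM scaling, filter on low counts by group, robust dispersion, R 4.3.3) in 1 fit of 18 libraries, with group and replicate number as terms and 10 residual degrees of freedom, two-sided, with Benjamini-Hochberg adjustment over 21285 genes. Standard errors (SE) are the log2 change over the square root of F. The fitting code was tested on simulated data. Replicate numbers were taken as pairs because the rule for the comparison names them as such. After group means were removed, libraries with the same number correlated at 0.307 to 0.688 across genes (45 pairs of libraries). Those with different numbers correlated at -0.519 to 3.38e-05 (90 pairs). Removing group means pushes values for different numbers below 0 when those for the same number lie above 0. Both ranges are therefore linked and give no separate support for the pairing. Replicates are labelled biological; whether they came from separate cultures is not stated, so p-values measure the spread between these samples. Libraries of a group differed by a chi-square of at least 53.4 per degree of freedom, so none was a copy.

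The comparison, the 29 gene lists and 2 added ones, and the naming rule were chosen with earlier results of these data known, so shared patterns are no independent support. Named genes were ADAR, ADARB1 and ADARB2, the 15 largest changes in each direction among called genes of 1 CPM or more with 3 of 3 pairs in the same direction, called list members, up to 4 further members of a list by smallest p, and up to 6 on a shifted arm. MX1, ISG15, CMPK2 and others outside the rule are examples chosen after values were seen. Alternatives were no pairing term, DESeq2 1.42.0 size factors and Wald test, no filter, the 6 or 12 libraries without other treatments, each library left out and, added after seeing the data, each replicate number left out. Intervals on counts are exact and cover counting error only. Promoters are from RefSeq, GRCh38.p14.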

Additional observations from a re-analysis of the deposited data

How the results depend on the processing

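With DMSO 124 genes were called. Without the replicate block 21 were called, with the DESeq2 Wald test 241, without a filter on low counts 265, in the 6 DMSO libraries alone 498 and in the 12 libraries without triptolide 205. For the untreated comparison the first 3 of these settings gave 21, 217 and 258 calls, and with triptolide 14, 272 and 236. The interaction gave 1 call without the filter and 0 with the block left out or the Wald test used. Leaving out one library gave 61 to 90 calls with DMSO, 78 to 105 untreated and 74 to 114 with triptolide. Leaving out replicate 1, 2 or 3 of all groups, chosen after seeing the data, gave 42, 83 and 53 calls with DMSO, 50, 95 and 53 untreated, and 37, 71 and 42 with triptolide. Of the 37 called genes named by the rule, none changed direction in any of these fits. Without the block 19 were no longer called, and 6 to 9 without one DMSO library. Leaving out replicate 1, 2 or 3 of all groups lost 13, 8 and 9 of these calls. Those lost without replicate 1 include KYNU (edgeR adjusted p = 0.16), COL6A3 (0.0525), SLC1A3 (0.0524) and PRSS23 (0.0524). Across all 124, 46 kept their call in each of the 6 fits without one DMSO library and 20 in none. The change of ADARB1, close to 0, ran from -0.06 without knockdown replicate 2 to 0.15 without knockdown replicate 1. With DESeq2 size factors no named call was lost. The cause of these differences was not tested. Genes under 1 CPM are limited by depth, and with few counts in a group the fitted change depends on the prior count.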

Other observations

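Several genes outside the naming rule were called with DMSO and are named here because of their values. Transcription factors among them were SOX9, of progenitor cells, KLF5, of epithelial renewal, RUNX1, of luminal and blood cells, and HEY2, an effector of Notch signalling. SOX9 had 22.8, 25.0 and 49.4 CPM in knockdown libraries, against 12.3, 12.8 and 27.3 CPM in control libraries. The groups overlapped through control replicate 3, while the change held within each pair (log2 change 0.90 ± 0.15, adjusted p = 0.00176 with edgeR). The log2 changes of the others were 0.90 ± 0.20 for KLF5 (adjusted p = 0.0396), 0.94 ± 0.21 for RUNX1 (adjusted p = 0.0337) and 0.98 ± 0.19 for HEY2 (adjusted p = 0.0117). KLF5 overlapped between the lines, with 18.1, 44.3 and 31.6 CPM in knockdown libraries and 8.11, 32.4 and 14.4 CPM in control libraries. Of the 6 fits without one DMSO library, 6 kept the call of SOX9, 3 that of HEY2, and 1 each those of KLF5 and RUNX1. HEY2 was at 13.0, 14.0 and 22.5 CPM in knockdown libraries and 7.25, 5.47 and 12.8 CPM in control libraries.

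IGFBP5, a carrier of insulin-like growth factors, had 211, 263 and 272 CPM in knockdown libraries, against 99.4, 160 and 118 CPM in control libraries (log2 change 1.00 ± 0.22, adjusted p = 0.0475). SULF1, a sulfatase that trims heparan sulfate, had 210, 427 and 366 CPM in knockdown libraries, against 127, 241 and 217 CPM in control libraries (log2 change 0.76 ± 0.14, adjusted p = 0.00549). CXCL14, an epithelial chemokine, had 20.0, 27.8 and 27.6 CPM in knockdown libraries, against 5.89, 7.70 and 9.10 CPM in control libraries (log2 change 1.74 ± 0.21, adjusted p = 4.58e-05). IGFBP5 and CXCL14 were apart between the lines and SULF1 overlapped. None of the 6 fits without one DMSO library kept the call of IGFBP5, while 4 kept that of SULF1 and 6 that of CXCL14. SLC25A48, a mitochondrial carrier gene that overlaps CXCL14 on the opposite strand, was also called higher (1.81 ± 0.33), in 3 of these 6 fits as well. S100A9, a calcium-binding alarmin, was lower, with 13.9, 3.65 and 6.73 CPM in knockdown libraries and 30.2, 8.37 and 10.4 CPM in control libraries (log2 change -0.98 ± 0.17, adjusted p = 0.00423, called in 5 of the 6 fits).

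Of the 124 called genes, 28 had a called neighbour within 1 Mb that moved the same way, and 15 of these lie on the short arm of chromosome 18 described above. The share of such genes among all tested genes was not computed. Further, 47 called genes overlapped a tested gene on the opposite strand, and the share over all tested genes was not computed for this either. Among the 47 were IL12RB1 (with MAST3), RFX2 (with ACSBG2), CRYAB (with C11orf52) and NDUFV2 (with NDUFV2-AS1). If the counting did not use strand, reads of these genes could be mixed with those of their partners. Overlap was taken over whole gene spans, and overlap of exons was not checked. TEX13C lies near TENM1, and both rose (log2 changes 1.40 ± 0.25 and 1.75 ± 0.26).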
